A study of Mus musculus with 9 samples.

Results

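The genes described here code for the integrin receptors, the laminin chains and a few anchoring proteins that hold cells to the basement membrane, in the ear skin of mice with an irritant or a psoriasis-like dermatitis. They were taken from the measured genes whose symbol is Itga, Itgb, Lama, Lamb or Lamc followed by digits, together with Itgad, Itgae, Itgal, Itgam, Itgav, Itgax, Col17a1, Col7a1 and Dst. This gave 37 genes of the 19938 tested, each represented by 1 probe set, the brightest where a gene had several. The ears came from female C57BL/6 mice of 7 to 9 weeks. One group had been treated with topical anisomycin, an inhibitor of protein synthesis that also activates stress kinases, at 2 mg/ml in ethanol and 10 µl on each side of the ear. A second group had received imiquimod, an agonist of Toll-like receptor 7, as 10 mg of a 5% cream applied to the inner and outer sides. Both agents were given daily for 5 days. The third group was treated with vehicle, whose composition and duration the labels do not give, so that ethanol, cream base and length of treatment were not controlled separately. RNA from the whole ear was hybridised to Mouse Gene 1.0 ST arrays, with 3 arrays in each group and 9 in all. Skin was the labelled tissue, and 6 of 6 basal keratinocyte markers were measured, with mean log2 levels of 11.04 to 11.24 in anisomycin ears, 11.09 to 11.17 in imiquimod ears and 10.71 to 10.99 in vehicle ears.

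Integrins are pairs of an alpha and a beta chain that cross the cell membrane and bind matrix or counter-receptors outside and talin and kindlin inside. Laminins are trimers of an alpha, a beta and a gamma chain that polymerise into the basement membrane sheet. In the epidermis, basal keratinocytes are held by hemidesmosomes, in which the integrin α6β4, the transmembrane collagen XVII (Col17a1) and the plakin BPAG1 (Dst) connect keratins to a laminin that contains the Lama3 and Lamb3 chains, while collagen VII (Col7a1) forms the fibrils that tie the basement membrane to the dermis. The β2 integrins (Itgb2 with Itgal, Itgam, Itgax or Itgad) are found on leukocytes, where they mediate firm adhesion to vessel walls and uptake of complement-coated particles.

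The set did not move as a block. Of the 8 leukocyte integrin chains 5 were higher and 1 lower with anisomycin, and 4 higher and 1 lower with imiquimod. Of the 4 laminin-binding integrin chains 3 were higher with each treatment. After a repeated quantile normalization or cyclic loess, Itga6 was no longer called with either treatment, nor Itgb4 with imiquimod. The 3 anchors were lower with each treatment, as were 5 of the 8 laminin chains other than Lama3 and Lamb3 with anisomycin and 7 of the 8 with imiquimod. For anisomycin against vehicle, 27 of the 37 genes passed limma's test at an adjusted p under 0.05, 14 higher and 13 lower. Of all genes tested 45.6% passed, 22.3% higher and 23.3% lower, and of the 13956 genes left after removal of the dimmest 30%, which include all 37, 59.9% passed. For imiquimod against vehicle 26 genes passed, 8 higher and 18 lower, beside 42.7% of all genes, 20.4% higher and 22.4% lower, and 56.2% of the brighter ones. For anisomycin against imiquimod 17 passed, 14 higher and 3 lower, beside 20.4% of all genes, 10.8% higher and 9.59% lower, and 27.7% of the brighter ones. The anisomycin and vehicle arrays did not overlap for 27 of the 37 genes and for 51.3% of all genes. The corresponding values were 25 genes and 51.8% for imiquimod against vehicle, and 26 genes and 39.3% for anisomycin against imiquimod. The median log2 fold change of the 37 genes was -0.02 for anisomycin against vehicle, -0.20 for imiquimod against vehicle and 0.08 for anisomycin against imiquimod, beside -0.01, -0.03 and 0.01 over all genes. With arrays centred on stable genes, the higher share of all called genes became 37.1% in place of 49.0% for anisomycin and 36.4% in place of 47.7% for imiquimod, while the set gave 14 higher and 13 lower, and 7 higher and 18 lower. In whole-ear RNA, fewer cells of a type and less RNA per cell cannot be told apart.

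**Figure D1:**
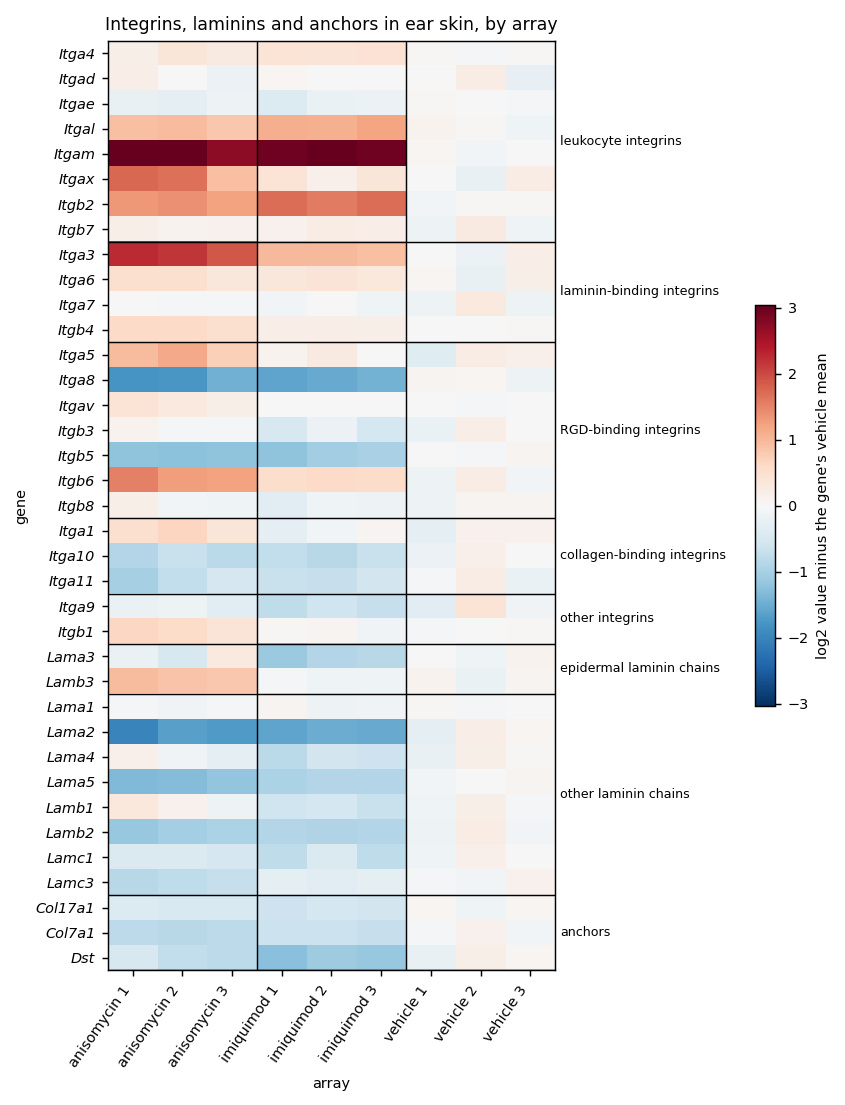
Colour map of the 37 genes (rows, grouped by role) in the 9 arrays (columns, 3 per group), as log2 value minus the gene's mean over the vehicle arrays. Itgam is the most strongly raised row in both treatments, followed by Itga3 with anisomycin and Itgb2 with imiquimod, Lama2 and Itga8 are the most strongly lowered ones, and the anchors Col17a1, Col7a1 and Dst are lower in every treated array than in every vehicle array.

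Promoter windows of 300 bases are shown for 4 genes that differed in how they responded to the treatments. Itgam and Itgax are neighbouring coding genes on mouse chromosome 7 (GRCm38.p6) and both pair with Itgb2, but differed in their response. Itga3 and Lamb3 code for an integrin chain and a laminin chain of the epidermal attachment site. The windows run from 250 bases before to 50 bases after the annotated start of the gene, 5′ to 3′ on the gene's strand, and were taken from RefSeq (GRCm38.p6). Of the 37 genes, 24 had at least 1 window, 28 windows in all. Capitals mark the AP-1 motif TGAGTCA, which AP-1 proteins bind, and the GC box GGGCGG, which Sp and Klf proteins bind, each on either strand.
Itgam, chr7:128062390-128062689, + strand: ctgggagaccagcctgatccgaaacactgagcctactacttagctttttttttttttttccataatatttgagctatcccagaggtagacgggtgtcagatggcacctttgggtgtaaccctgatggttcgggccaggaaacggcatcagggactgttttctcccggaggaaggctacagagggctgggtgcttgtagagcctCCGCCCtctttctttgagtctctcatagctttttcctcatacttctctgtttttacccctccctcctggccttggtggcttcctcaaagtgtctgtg
Itgax, chr7:128129300-128129599, + strand: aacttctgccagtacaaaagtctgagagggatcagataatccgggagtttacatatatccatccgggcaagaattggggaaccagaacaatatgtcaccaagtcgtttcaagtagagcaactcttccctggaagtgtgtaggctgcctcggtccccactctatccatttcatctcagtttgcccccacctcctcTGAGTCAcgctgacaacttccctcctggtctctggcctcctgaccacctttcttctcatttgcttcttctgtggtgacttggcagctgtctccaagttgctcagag
Itga3, chr11:95076665-95076964, - strand: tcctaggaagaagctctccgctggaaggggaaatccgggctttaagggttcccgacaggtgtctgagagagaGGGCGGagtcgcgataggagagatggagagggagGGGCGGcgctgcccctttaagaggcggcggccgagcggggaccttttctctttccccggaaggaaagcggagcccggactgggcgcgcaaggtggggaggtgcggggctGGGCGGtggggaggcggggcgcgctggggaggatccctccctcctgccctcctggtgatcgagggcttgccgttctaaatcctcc
Lamb3, chr1:193301744-193302043, + strand: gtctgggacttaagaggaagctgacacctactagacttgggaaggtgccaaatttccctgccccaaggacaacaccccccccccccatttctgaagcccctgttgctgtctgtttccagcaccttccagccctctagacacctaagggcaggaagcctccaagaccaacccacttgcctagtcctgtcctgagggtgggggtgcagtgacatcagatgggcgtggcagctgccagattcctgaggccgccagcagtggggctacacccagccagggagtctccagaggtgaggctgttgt

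The Itgax window holds 1 AP-1 motif, which begins 56 bases before the start, and the Itgam window holds none. The Itgam window has 1 GC box and the upstream window of Itga3 has 3, while the Lamb3 window printed has neither motif. Over all 32851 mouse promoter windows of this length, 5.2% hold the AP-1 motif, and among the 28 windows of these genes 2 do, those of Itgax and Itga9. The GC box is in 35.7% of all windows and in 13 of the 28. The PU.1 motif GAGGAAGT, named for a transcription factor of myeloid cells, was searched on both strands as well and stood in 4 of the 28 windows, those of Itga11, Itgav, Itgb6 and Itgb7, beside 3.2% of all windows. None of the marked motifs overlap in the windows shown. These matches describe the sequence only.

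Among the 8 leukocyte integrin chains the largest change was that of Itgam, the alpha chain of the complement receptor Mac-1 on neutrophils and macrophages. Itgam had log2 values of 9.06, 9.04 and 8.74 in anisomycin ears and 8.98, 9.05 and 8.98 in imiquimod ears, against 6.09, 5.94 and 6.05 in vehicle ears. The treated arrays lay far above the vehicle arrays and overlapped with each other. The rise was 2.92 (SE 0.09, 7.58-fold, adjusted p = 3.16e-08) with anisomycin and 2.98 (SE 0.09, 7.90-fold, adjusted p = 3.14e-08) with imiquimod. The difference between the treatments was -0.06, with a 95% interval of -0.26 to 0.14 on the log2 scale (adjusted p = 0.714).

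Itgb2, the shared beta chain of this group, had values of 8.07, 8.15 and 7.98 in anisomycin ears and 8.44, 8.34 and 8.45 in imiquimod ears, against 6.67, 6.79 and 6.80 in vehicle ears. None of the 3 groups overlapped, with imiquimod highest. It rose by 1.31 with anisomycin (SE 0.06, adjusted p = 5.08e-07) and by 1.66 with imiquimod (SE 0.06, adjusted p = 2.12e-07), and was lower with anisomycin than with imiquimod by a log2 difference of -0.34 (SE 0.06, adjusted p = 0.00598). Itgal, the alpha chain of LFA-1 on lymphocytes and other leukocytes, followed the same order. Its values were 6.66, 6.71 and 6.55 in anisomycin ears and 6.84, 6.83 and 6.93 in imiquimod ears, against 5.84, 5.78 and 5.60 in vehicle ears. The rises were 0.90 (adjusted p = 8.89e-06) and 1.13 (adjusted p = 3.75e-06, SE 0.07 each), and the difference of -0.23 between the treatments did not pass (adjusted p = 0.053), although it passed under 7 of the 19 alternative settings.

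Itgax, the CD11c chain of dendritic cells and some macrophages, parted from its neighbour Itgam. Its values were 7.57, 7.49 and 6.73 in anisomycin ears and 6.22, 5.97 and 6.19 in imiquimod ears, against 5.82, 5.60 and 6.03 in vehicle ears. All anisomycin arrays were above all others, with replicate 3 well below the other two, and the imiquimod and vehicle arrays overlapped. It rose by 1.45 with anisomycin (SE 0.20, 2.72-fold, adjusted p = 0.000302). With imiquimod the log2 fold change was 0.31, with a 95% interval of -0.15 to 0.77 (adjusted p = 0.268). The difference between the treatments was 1.14 (SE 0.20, adjusted p = 0.0052) and stayed between 0.98 and 1.40 in all 19 alternatives. Of the 10 dendritic and Langerhans cell markers, 2 were higher and 3 lower with anisomycin and 1 higher and 5 lower with imiquimod. Their mean log2 level was 6.20 to 6.31 in anisomycin ears, 6.03 to 6.16 in imiquimod ears and 6.35 to 6.43 in vehicle ears. The shares of these markers called were 50% with anisomycin and 60% with imiquimod, beside 45.6% and 42.7% of all genes. The migration receptor gene Ccr7 rose by 1.87 with anisomycin and by 0.84 with imiquimod, while Cd74 was at -0.85 and -0.87. Clec10a was at -0.84 with anisomycin, and Cd209a at -1.22 with imiquimod. The part of dendritic and Langerhans cells in the Itgax values was not tested.

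The other leukocyte chains moved little. Itga4, which pairs with Itgb1 or Itgb7 and binds VCAM-1, was at 6.83 to 7.04 in anisomycin ears and 7.05 to 7.09 in imiquimod ears, against 6.6 to 6.7 in vehicle ears, and rose by 0.27 (adjusted p = 0.00478) and 0.41 (adjusted p = 0.0005). Itgae, the CD103 chain that lets intraepithelial T cells and some dendritic cells bind E-cadherin, was lower in every treated array, at 5.76 to 5.88 with anisomycin and 5.61 to 5.85 with imiquimod, against 5.97 to 6.07 with vehicle. It fell by 0.21 with anisomycin (adjusted p = 0.0385) and by 0.26 with imiquimod (adjusted p = 0.0156). Both calls were lost after a repeated quantile normalization or cyclic loess, and the one for anisomycin in 6 further alternatives, among them those without anisomycin replicate 1 or 2 or vehicle replicate 1 or 2. Of 9 measured T cell markers 3 were lower and 1 higher with each treatment. The share called, 44.4%, was near the 45.6% and 42.7% of all genes. The mean level of these markers was 5.59 to 5.64 in anisomycin ears, 5.60 to 5.71 in imiquimod ears and 5.68 to 5.91 in vehicle ears. The part of T cells in the Itgae values was not tested. The partner of Itgae, Itgb7, had log2 fold changes of 0.14 and 0.18 and did not pass (adjusted p = 0.32 and 0.194), though without vehicle replicate 2, the highest vehicle array at 6.35, it passed in both comparisons at 0.27 and 0.32. Itgad had log2 fold changes of 0.01 and 0.02 (adjusted p = 0.96 and 0.936).

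Against vehicle, the called neutrophil markers and most called monocyte and macrophage markers moved in the direction of Itgam, Itgb2 and Itgal. Of 13 measured neutrophil markers 8 were higher and none lower with each treatment, and their mean log2 level was 6.64 to 6.97 in anisomycin ears and 6.68 to 6.82 in imiquimod ears, against 5.11 to 5.24 in vehicle ears. Cxcr2, the neutrophil chemokine receptor, was higher by 4.97 with anisomycin and by 4.71 with imiquimod. Of 11 measured monocyte and macrophage markers 9 were higher and 1 lower with anisomycin and 8 higher and 1 lower with imiquimod, with mean levels of 8.62 to 8.78 in anisomycin ears, 8.34 to 8.46 in imiquimod ears and 7.50 to 7.59 in vehicle ears. Between the treatments, 4 neutrophil markers were higher and 3 lower with anisomycin, and 6 monocyte and macrophage markers were higher and 2 lower. Itgb2 was lower with anisomycin than with imiquimod, and the differences of Itgam and Itgal did not pass. How far numbers of neutrophils, monocytes and macrophages account for the integrin values was not tested.

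**Figure D2:**
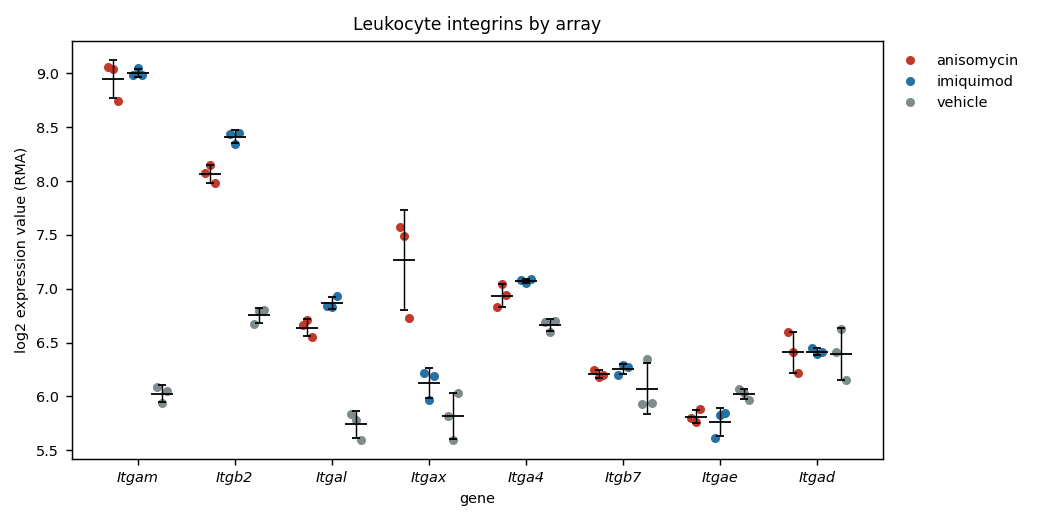
Log2 expression values of the 8 leukocyte integrin chains in each array (points), with the mean and SD of the 3 arrays of each group (bars). Itgam, Itgb2 and Itgal are higher in both treatments, while Itgax is separated from vehicle only in the anisomycin arrays, of which replicate 3 is the lowest at 6.73.

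The laminin-binding integrins are the receptors by which basal keratinocytes hold the basement membrane, with α3β1 in focal contacts and α6β4 in hemidesmosomes. Itga3 had values of 10.34, 10.23 and 9.95 in anisomycin ears and 9.06, 9.04 and 8.98 in imiquimod ears, against 8.05, 7.88 and 8.27 in vehicle ears. The 3 groups did not overlap. Itga3 rose by 2.11 with anisomycin (SE 0.12, 4.31-fold, adjusted p = 1.11e-06) and by 0.96 with imiquimod (SE 0.12, 1.94-fold, adjusted p = 0.000142). The treatments differed by 1.15 (SE 0.12, adjusted p = 0.00037).

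The hemidesmosomal pair rose less. Itgb4 had values of 10.40, 10.40 and 10.32 in anisomycin ears and 10.03, 10.02 and 9.99 in imiquimod ears, against 9.81, 9.81 and 9.85 in vehicle ears. The groups were again apart, with rises of 0.55 for anisomycin (SE 0.05, adjusted p = 1.19e-05) and 0.19 for imiquimod (SE 0.05, adjusted p = 0.00816) and a difference of 0.36 between them (adjusted p = 0.00114). Both rises depended on the scaling of the arrays. The one with anisomycin was 0.28 after a repeated quantile normalization and 0.33 after cyclic loess, and still passed. The one with imiquimod turned to -0.06 after a repeated quantile normalization and after cyclic loess, and did not pass with arrays centred on stable genes. Itga6 rose by 0.44 with anisomycin (adjusted p = 0.00401) and by 0.35 with imiquimod (adjusted p = 0.0133), with arrays at 10.65 to 10.79 in anisomycin ears and 10.63 to 10.69 in imiquimod ears, against 10.08 to 10.48 in vehicle ears. Its calls were also lost under a repeated quantile normalization and cyclic loess, with values down to 0.15 for anisomycin and 0.05 for imiquimod. Itga7, the laminin receptor of muscle, had log2 fold changes of -0.04 and -0.06 (adjusted p = 0.826 and 0.701).

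The integrin chains that recognise the RGD sequence of fibronectin, vitronectin and latent TGF-β, and their partners, split into both directions. Itgb6, an epithelial chain that pairs with Itgav and activates TGF-β, had values of 7.94, 7.68 and 7.63 in anisomycin ears and 6.95, 6.99 and 6.97 in imiquimod ears, against 6.26, 6.64 and 6.33 in vehicle ears. No arrays overlapped between groups. It rose by 1.33 with anisomycin (SE 0.11, 2.52-fold, adjusted p = 9.78e-06) and by 0.56 with imiquimod (SE 0.11, 1.47-fold, adjusted p = 0.00241), a difference of 0.78 (adjusted p = 0.00168). Itga5, the alpha chain of the fibronectin receptor, had values of 8.72, 8.91 and 8.47 in anisomycin ears and 7.86, 8.03 and 7.74 in imiquimod ears, against 7.38, 7.98 and 7.91 in vehicle ears. Anisomycin ears were above both other groups, which overlapped. Itga5 rose by 0.95 with anisomycin (SE 0.17, adjusted p = 0.00118), while the value for imiquimod was 0.12, with a 95% interval of -0.26 to 0.50 (adjusted p = 0.62).

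Itgb1, the partner of most matrix-binding alpha chains, had values of 9.53, 9.45 and 9.29 in anisomycin ears and 8.92, 8.98 and 8.78 in imiquimod ears, against 8.85, 8.89 and 8.94 in vehicle ears. It rose by 0.53 with anisomycin (SE 0.08, adjusted p = 0.000329), and the interval for imiquimod ran from -0.17 to 0.17 (adjusted p = 0.976). Itgav rose by 0.29 with anisomycin (adjusted p = 0.00392), with arrays at 9.37 to 9.60 against 9.15 to 9.22 in vehicle ears. That call was lost after a repeated quantile normalization or cyclic loess. With imiquimod Itgav was at 9.18 to 9.21, with an interval of -0.14 to 0.14 (adjusted p = 0.977), but was called lower under the same alternatives, at -0.17 (adjusted p = 0.0439) and -0.20 (adjusted p = 0.0446).

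Other RGD-binding chains were lower. Itga8, which pairs with Itgb1 and binds nephronectin in the hair follicle and around smooth muscle, had values of 5.42, 5.43 and 5.74 in anisomycin ears and 5.59, 5.66 and 5.77 in imiquimod ears, against 7.28, 7.27 and 7.05 in vehicle ears. Every treated array was more than 1 unit below every vehicle array. Itga8 fell by 1.67 with anisomycin (SE 0.10, 3.19-fold lower, adjusted p = 1.85e-06) and by 1.53 with imiquimod (SE 0.10, 2.89-fold lower, adjusted p = 4.66e-06). Its ligand gene Npnt was lower as well, at -1.14 and -1.07. Of 8 smooth muscle and pericyte markers 1 was higher and 2 lower with anisomycin, and 4 were lower with imiquimod. The shares called were 37.5% and 50%, beside 45.6% and 42.7% of all genes. The mean level of these markers was 7.04 to 7.08 in anisomycin ears, 6.82 to 6.83 in imiquimod ears and 7.15 to 7.42 in vehicle ears. Their part in the fall of Itga8 was not tested. Itgb5, a vitronectin-binding partner of Itgav, was at 8.57, 8.55 and 8.58 in anisomycin ears and 8.58, 8.75 and 8.82 in imiquimod ears, against 9.78, 9.73 and 9.89 in vehicle ears. It fell by 1.23 with anisomycin (SE 0.07, adjusted p = 1.32e-06) and by 1.08 with imiquimod (SE 0.07, adjusted p = 4.27e-06). The partners of Itgav thus moved in opposite directions, Itgb6 up and Itgb5 down, in both treated groups. Itgb8, which also activates TGF-β with Itgav, did not pass, with log2 fold changes of -0.02 and -0.20 (adjusted p = 0.917 and 0.151). Itgb3, of platelets, endothelium and osteoclasts, had a 95% interval of -0.27 to 0.27 for anisomycin and was lower by -0.39 for imiquimod (adjusted p = 0.0245). Its imiquimod arrays, at 6.21 to 6.58, overlapped with the vehicle arrays, at 6.55 to 6.94. The call for imiquimod was lost in 6 of 19 alternatives, including those without imiquimod replicate 1 or 3 or vehicle replicate 2 or 3.

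Among the collagen-binding chains, Itga1 had values of 7.43, 7.59 and 7.31 in anisomycin ears and 6.68, 6.86 and 7.04 in imiquimod ears, against 6.68, 7.08 and 7.08 in vehicle ears. The rise with anisomycin was 0.50 (SE 0.13, adjusted p = 0.0107), and the value for imiquimod was -0.08 (adjusted p = 0.676). Itga10, a chain of cartilage, fell by 0.79 with anisomycin (SE 0.09, adjusted p = 9.27e-05) and by 0.76 with imiquimod (SE 0.09, adjusted p = 0.000157). Of 9 measured cartilage markers 7 were lower and none higher with each treatment, with mean levels of 6.40 to 6.68 in anisomycin ears, 6.63 to 6.70 in imiquimod ears and 7.40 to 7.67 in vehicle ears. Itga11, a collagen receptor of fibroblasts, fell by 0.76 (SE 0.14, adjusted p = 0.00127) and 0.64 (SE 0.14, adjusted p = 0.00386). Of 10 fibroblast markers 9 were lower with each treatment and 1, Pdgfra, was higher with anisomycin, by 0.68, with mean levels of 9.54 to 9.61 in anisomycin ears, 9.37 to 9.55 in imiquimod ears and 10.29 to 10.41 in vehicle ears. The part of cartilage or fibroblast content in these falls was not tested. Itga9, a tenascin-binding chain, fell by 0.69 with imiquimod (SE 0.15, adjusted p = 0.00543) and was at -0.22 with anisomycin (adjusted p = 0.287). The difference of 0.47 between the treatments did not pass (adjusted p = 0.0633), although it passed in 6 of the 19 alternatives.

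**Figure D3:**
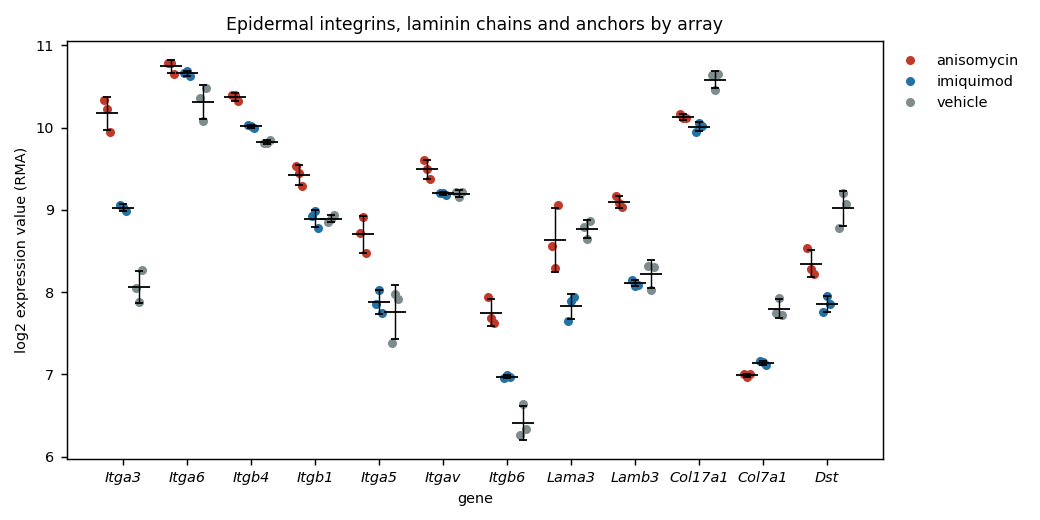
Log2 expression values of laminin-binding integrin chains, Itgb1, RGD-binding integrin chains, Lama3, Lamb3 and the anchors in each array (points). Bars show the mean and SD of the 3 arrays of each group. Values from whole-ear RNA do not assign these genes to the epidermis. Itga3 and Itgb6 step down from anisomycin to imiquimod to vehicle, Lamb3 is high only in anisomycin arrays, and Col17a1, Col7a1 and Dst are highest in vehicle arrays.

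Lama3 and Lamb3, chains of the epidermal laminin of the hemidesmosome, were both higher with anisomycin than with imiquimod, by 0.81 and 0.99. Lamb3 had values of 9.17, 9.08 and 9.03 in anisomycin ears and 8.15, 8.08 and 8.09 in imiquimod ears, against 8.32, 8.02 and 8.31 in vehicle ears. It was higher in all anisomycin arrays than in any other array, with a rise of 0.88 (SE 0.08, adjusted p = 2.23e-05). With imiquimod it was at -0.11, with a 95% interval of -0.29 to 0.08 (adjusted p = 0.339). That value became -0.21 and passed under cyclic loess (adjusted p = 0.0386) and without vehicle replicate 2 (adjusted p = 0.0185). The treatments differed by 0.99 (SE 0.08, adjusted p = 0.000125). Lama3 had values of 8.56, 8.29 and 9.06 in anisomycin ears and 7.65, 7.89 and 7.94 in imiquimod ears, against 8.79, 8.65 and 8.87 in vehicle ears. The anisomycin arrays were the most scattered and overlapped with vehicle, while all imiquimod arrays lay below both. Lama3 fell by 0.94 with imiquimod (SE 0.17, adjusted p = 0.00157) and was at -0.14 with anisomycin (adjusted p = 0.566), a value that became -0.35 and passed without anisomycin replicate 3 (adjusted p = 0.0391), and -0.45 with array weights (adjusted p = 0.0446).

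The anchors were lower in all treated arrays. Col17a1 had values of 10.17, 10.11 and 10.11 in anisomycin ears and 9.95, 10.06 and 10.02 in imiquimod ears, against 10.64, 10.46 and 10.65 in vehicle ears. It fell by 0.45 with anisomycin (SE 0.06, adjusted p = 0.000262) and by 0.58 with imiquimod (SE 0.06, adjusted p = 7.67e-05). The fall with anisomycin was larger under a repeated quantile normalization, at -0.75, and cyclic loess, at -0.69. Col7a1 had values of 7, 6.97 and 7 in anisomycin ears and 7.16, 7.15 and 7.11 in imiquimod ears, against 7.75, 7.93 and 7.72 in vehicle ears. It fell by 0.81 (SE 0.06, adjusted p = 6.33e-06) and 0.66 (SE 0.06, adjusted p = 2.89e-05). Dst had values of 8.53, 8.28 and 8.22 in anisomycin ears and 7.76, 7.95 and 7.86 in imiquimod ears, against 8.78, 9.20 and 9.07 in vehicle ears. It fell by 0.68 with anisomycin (SE 0.12, adjusted p = 0.00107) and by 1.16 with imiquimod (SE 0.12, adjusted p = 4.77e-05). Dst also has neuronal and muscle isoforms, which 1 value per gene cannot separate from the epithelial one. These falls stood beside 6 basal keratinocyte markers, of which 3 were higher, 1 lower and 2 not called with anisomycin. With imiquimod 4 were higher, 1 lower and 1 not called. The lower one was Krt15, at -2.46 and -2.54. The higher ones included Sfn, at 1.76 and 1.66, and Cdh3, at 1.61 and 1.62. With anisomycin Krt14 was higher too, at 0.80. The 2 not called with anisomycin were Krt5, at 0.14, and Trp63, at -0.11 (adjusted p = 0.0812 and 0.234). Within the hemidesmosome, then, the integrin chains Itgb4 and Itga6 and the anchors Col17a1 and Dst had log2 fold changes of opposite sign in both treated groups, subject to the scaling for Itga6 and, with imiquimod, Itgb4.

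The remaining laminin chains, which make the basement membranes of vessels, nerves, muscle, follicles and dermal-epidermal junction, were lower or did not pass. Of these 8 chains 5 were lower with anisomycin and 7 with imiquimod, and none was higher. Lama2, the alpha chain of muscle and peripheral nerve, had values of 6.85, 7.22 and 7.14 in anisomycin ears and 7.25, 7.35 and 7.33 in imiquimod ears, against 8.59, 9.06 and 8.93 in vehicle ears. It fell by 1.79 with anisomycin (SE 0.13, 3.45-fold lower, adjusted p = 4.54e-06) and by 1.55 with imiquimod (SE 0.13, 2.92-fold lower, adjusted p = 1.51e-05). Of 13 skeletal muscle markers 13 were lower with each treatment, with mean levels of 7.88 to 8.10 in anisomycin ears, 7.67 to 8.30 in imiquimod ears and 9.68 to 10.35 in vehicle ears. Of 6 measured Schwann cell markers 5 were lower with anisomycin and 6 with imiquimod. The part of these tissues in the fall of Lama2 was not tested.

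Lama5, the alpha chain of laminins under epidermis, follicle and endothelium, had values of 7.39, 7.41 and 7.53 in anisomycin ears and 7.75, 7.83 and 7.83 in imiquimod ears, against 8.63, 8.72 and 8.81 in vehicle ears. The groups were apart, with anisomycin lowest. Lama5 fell by 1.27 with anisomycin (SE 0.06, adjusted p = 5.72e-07) and by 0.92 with imiquimod (SE 0.06, adjusted p = 5.62e-06), and the difference of -0.36 passed (adjusted p = 0.00485). Lamc3 showed the same order, falling by 0.77 (SE 0.07) and 0.30 (SE 0.07), with a difference of -0.47 (adjusted p = 0.00181). Lamb2 fell by 1.05 (SE 0.09, adjusted p = 1.80e-05) and 0.90 (SE 0.09, adjusted p = 6.03e-05), and Lamc1, the gamma chain of most laminins, by 0.46 (adjusted p = 0.00396) and 0.66 (adjusted p = 0.00056).

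Lama4 and Lamb1, chains of vessel and mesenchymal laminins, separated the treatments. Lama4 was at 8.53, 8.26 and 8.09 in anisomycin ears and 7.56, 7.82 and 7.74 in imiquimod ears, against 8.15, 8.55 and 8.41 in vehicle ears. It fell by 0.66 with imiquimod (SE 0.13, adjusted p = 0.00288) and was at -0.08 with anisomycin (adjusted p = 0.687). Lamb1 was at 7.40, 7.20 and 6.91 in anisomycin ears and 6.47, 6.54 and 6.39 in imiquimod ears, against 6.95, 7.25 and 7.01 in vehicle ears. It fell by 0.60 with imiquimod (SE 0.12, adjusted p = 0.00315) and was at 0.10 with anisomycin (adjusted p = 0.551). For both chains the imiquimod arrays lay below all others and the anisomycin and vehicle arrays overlapped. Of 11 endothelial markers, 1 was higher and 3 lower with anisomycin, and 5 were lower with imiquimod. In anisomycin ears 4 were higher than in imiquimod ears. The shares called were 36.4%, 45.5% and 36.4%, beside 45.6%, 42.7% and 20.4% of all genes. The mean level of these markers was 6.93 to 7.27 in anisomycin ears, 6.62 to 6.69 in imiquimod ears and 6.93 to 7.36 in vehicle ears. Their part in the laminin values was not tested. Lama1, mainly an embryonic chain, had log2 fold changes of -0.05 and -0.06 (adjusted p = 0.58 and 0.503).

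**Figure D4:**
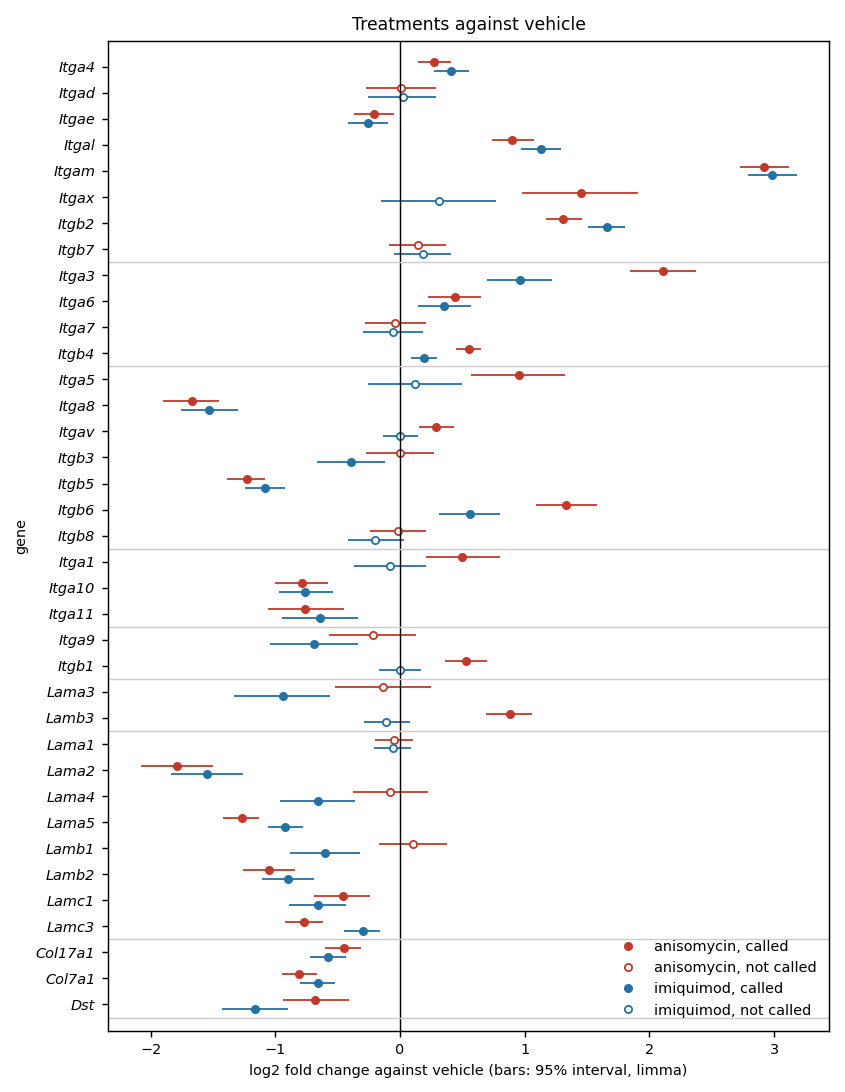
Log2 fold change of each of the 37 genes against vehicle for anisomycin (upper point of each pair) and imiquimod (lower point), with 95% intervals from limma, ordered by role and with open points for values that did not pass. The rises of Itgam are 2.92 and 2.98, and the anchors and the lower group of laminin chains lie left of 0.

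The direct comparison of anisomycin with imiquimod asks where the irritant and the psoriasis-like model part. The 14 genes that were higher with anisomycin were Itga3, Itgax, Lamb3, Itga5, Lama3, Itgb6, Lamb1, Lama4, Itga1, Itgb1, Dst, Itgb3, Itgb4 and Itgav, with log2 differences between 0.29 and 1.15. The 3 that were lower were Lamc3, Lama5 and Itgb2, at -0.47, -0.36 and -0.34. For Dst, Itga5, Lama3, Lama4, Lamb1 and Itgb3 the differences were 0.49, 0.83, 0.81, 0.59, 0.70 and 0.40 (adjusted p = 0.0183, 0.00855, 0.0105, 0.0144, 0.00443 and 0.0454). The call of Itgb3 was lost in 8 of the 19 alternatives, among them those without any 1 of the anisomycin arrays. The calls of Dst, Itga1 and Lama4 were lost without imiquimod replicate 1, at adjusted p values of up to 0.0716, 0.0573 and 0.0594 over the alternatives. Dst also lost its call without anisomycin replicate 1 or imiquimod replicate 3, and Itga1 without anisomycin replicate 2. Of 5 measured platelet markers 2, Ppbp at 3.25 and Pf4 at 0.87, were higher in anisomycin than in imiquimod ears and none lower. Their mean level was 7.54 to 7.77 in anisomycin ears, 6.77 to 6.89 in imiquimod ears and 6.41 to 6.55 in vehicle ears. Against vehicle 3 of these markers were higher and none lower with each treatment. That share, 60%, stood beside 45.6% and 42.7% of all genes. The other 2, Gp9 and Treml1, were not called, at 0.02 and -0.15 with anisomycin (adjusted p = 0.872 and 0.356). Itgb3 was called lower than vehicle with imiquimod and was not called with anisomycin. The part of platelets in the Itgb3 value was not tested.

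**Figure D5:**
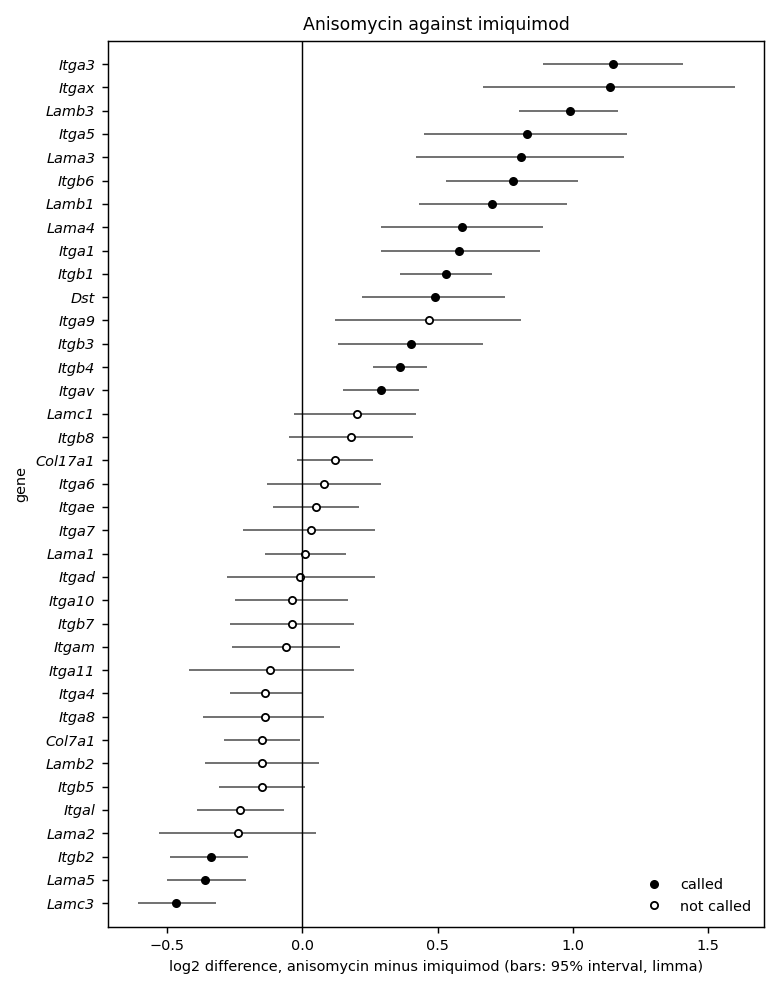
Log2 difference of anisomycin minus imiquimod for each of the 37 genes, in order of size, with 95% intervals from limma and filled points for differences that passed. Itga3, Itgax and Lamb3 stand at the top, at 1.15, 1.14 and 0.99, and Lamc3 at the bottom, at -0.47.

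The genes around these receptors were counted in 3 further lists. Of 25 measured integrin adaptors and signalling genes, 12 were higher and 3 lower with anisomycin, and 8 higher and 7 lower with imiquimod. The median log2 fold change was 0.17 and 0.04. Between the treatments 11 were higher with anisomycin and none lower, beside 10.8% and 9.59% of all genes, among them the kinase gene Src at 0.90 (adjusted p = 0.000399), the focal adhesion scaffold paxillin (Pxn) at 0.76 (adjusted p = 0.0019) and kindlin-2 (Fermt2) at 0.69 (adjusted p = 0.00393). Against vehicle, Src was at 1.01 with anisomycin and 0.11 with imiquimod, and Pxn at 0.82 and 0.06, where the values for imiquimod did not pass (adjusted p = 0.413 and 0.699). Fermt2 was at -0.31 with anisomycin, which did not pass (adjusted p = 0.0533), and fell by 1.00 with imiquimod. Zyxin (Zyx), an actin-linked adhesion protein, rose by 1.11 with anisomycin and by 0.48 with imiquimod, and tensin-1 (Tns1) fell by 1.31 with anisomycin and 1.06 with imiquimod. The leukocyte adaptor RIAM (Apbb1ip), which brings talin to integrins, rose by 1.22 and 0.80.

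Of 25 other components and partners of the basement membrane, 2 were higher and 17 lower with anisomycin, and 1 higher and 17 lower with imiquimod, with medians of -0.53 and -0.48. Frem2, of the complex that anchors epidermis to dermis during development, fell by 1.89 and 1.74, and the matricellular gene Smoc2 by 1.54 and 1.36. Between the treatments 2 were higher and 3 lower with anisomycin, near the 20.4% called of all genes. Of 19 measured integrin ligands, 6 were higher and 8 lower with anisomycin and 4 higher and 7 lower with imiquimod. For anisomycin against imiquimod 5 ligands were higher and 2 lower, or 36.8% called, beside 20.4% of all genes. Mfge8 was among the lower ones, at -0.87 (adjusted p = 0.000293). Tenascin-C (Tnc), a matrix protein of wounds and a ligand of α9β1, rose by 2.33 with anisomycin and by 1.48 with imiquimod, and Icam1, the counter-receptor of the β2 integrins, rose by 1.73 with anisomycin and by 0.62 with imiquimod, a difference of 1.12 (adjusted p = 0.000439). Tgfb3, whose latent form can be bound by αv integrins, fell by 1.70 and 1.56, and fibronectin (Fn1) fell by 0.99 with anisomycin and by 0.89 with imiquimod. In number called, 15 adaptors, 19 basement membrane genes and 14 ligands passed for anisomycin, and 15, 18 and 11 for imiquimod. Of all genes 45.6% and 42.7% passed, and of the brighter ones 59.9% and 56.2%. The share of adaptors, 60% for each treatment, was near that of the brighter genes, as was that of ligands for imiquimod, at 57.9%.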

How the data were processed

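Whole-ear RNA of 9 samples in 3 groups was measured on Affymetrix Mouse Gene 1.0 ST arrays. The authors deposited log2 expression values made with RMA, per the submitters' processing notes, a method that corrects background, normalizes by quantiles and summarises probe sets. Of 35556 rows, 21789 carry 1 gene symbol, 1621 several and 12146 none in the platform annotation. Rows with 1 symbol were kept, with the brightest probe set per gene.

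A mean per group was fitted to all 9 arrays with limma 3.58.1 in R 4.3.3. P-values are two-sided and Benjamini-Hochberg adjusted over 19938 genes. SE and 95% intervals come from this fit. The fitting step was tested on simulated data with independent arrays and changes in few genes. Those settings differ from the present data, in which many genes were called. The number of arrays limits the precision, and an exact test of 3 against 3 cannot go below p = 0.1. The labels do not name separate animals, so p-values measure the spread between these samples. Correlations between arrays were at least 0.993 within groups and 0.927 to 0.990 between them. No batch is labelled, and signal over background was not tested.

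The set, roles and lists were chosen with earlier results of these data known. Not every chain of these families is reported here. All 37 genes of the set are described, and from each other list at most the 3 largest called changes per comparison were named. Some further values, called or not called, are given beside them. The alternatives changed the variance prior, the filter on dim genes, the scaling of the arrays (repeated quantile normalization, median centring, centring on 1000 stable genes, cyclic loess), the summary of probe sets, the array weights, the groups fitted and the replicate block, or left out 1 array.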

Additional observations from a re-analysis of the deposited data

Results flagged for a closer look

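For 6 genes the test of the difference between the treatments passed while the log2 fold changes against vehicle lay on opposite sides of 0, at least 1 of them called. Both comparisons share the vehicle arrays, and the difference itself was tested as anisomycin minus imiquimod. Lamb3 differed by 0.99 (SE 0.08, adjusted p = 0.000125), with 0.88 for anisomycin and -0.11 for imiquimod. Lamb1 differed by 0.70 (SE 0.12, adjusted p = 0.00443), with 0.10 for anisomycin and -0.60 for imiquimod. Itga1 differed by 0.58 (SE 0.13, adjusted p = 0.0136), with 0.50 and -0.08. Itgb1 differed by 0.53 (SE 0.08, adjusted p = 0.00186) and Itgav by 0.29 (SE 0.06, adjusted p = 0.0112), in each case with a value for imiquimod that rounds to 0. Itgb3 differed by 0.40 (SE 0.12, adjusted p = 0.0454), with -0.39 for imiquimod and a value for anisomycin that rounds to 0. In each of the 6, 1 of the effects against vehicle was not called, so the opposite sign is not shown. The call of Itgb3 was lost without any 1 of the anisomycin arrays, and that of Itga1 without anisomycin replicate 2 or imiquimod replicate 1.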

How the results depend on the processing

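Over 19 alternatives per comparison, 24 of the 27 calls for anisomycin against vehicle, 22 of 26 for imiquimod against vehicle and 13 of 17 for anisomycin against imiquimod held in all of them. Of the genes not called, 2, 3 and 6 passed in at least 1. Itgb4 with imiquimod was the only called value to change sign, at -0.06 after a repeated quantile normalization and -0.06 after cyclic loess; the cause was not tested. The number of genes of the set lower with anisomycin than with imiquimod, 3, became 7 with array weights and 5 with only the 2 groups compared, while array weights called 8557 of all genes in that comparison in place of 4059. Leaving out 1 array gave 2523 to 4766 of all genes there, with 13 to 19 of the set called; the counts of the set were 26 to 28 for anisomycin and 25 to 27 for imiquimod against vehicle. The same replicate numbers occur in each group, and the labels do not say whether they pair the samples. Deviations from the group means correlated at -0.201 to 0.196 between same-numbered arrays. Differently numbered arrays were not compared, so these correlations cannot decide whether the numbers pair the samples. With the replicate number as a block, 26, 26 and 18 of the set were called, of which 26, 26 and 17 were among the calls without it, and 8924, 8280 and 3734 of all genes.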

Other observations

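The second probe set of Itgad, not used above, was dimmer, at mean log2 values of 4.82 in anisomycin ears, 4.69 in imiquimod ears and 4.66 in vehicle ears, and did not pass in any comparison (adjusted p = 0.236, 0.829 and 0.456).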
